A study of Sus scrofa with 29 samples.

Results

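Oxidative phosphorylation makes most of the ATP of many cells in the mitochondrial inner membrane, and the nuclear genes of its machinery were followed here in the artery lining of exercise-trained and sedentary pigs. Members were the probe sets (groups of short probes that together measure a transcript) whose only gene symbol on the array platform begins with NDUFA, NDUFB, NDUFC, NDUFS or NDUFV and a digit, is SDHA, SDHB, SDHC, SDHD, CYC1 or CYCS, or begins with UQCR, with ATP5 or with COX4 to COX8. Each gene was represented by its probe set with the highest mean over all arrays, so the rule used no comparison between groups. It gave 60 genes out of 6765 named on the array: 32 of complex I, 4 of complex II, 2 of complex III (UQCR10 and UQCRB), cytochrome c itself (CYCS), 7 of complex IV and 14 of complex V. These genes had 15 further probe sets, which are described separately.

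The tissue was a scrape of the luminal surface of the brachial artery, which supplies the foreleg, and of an artery inside the chest wall, the internal mammary, in healthy pigs (Sus scrofa). Exercised pigs had run on a treadmill for 16 to 20 weeks, working up to bouts of 85 min on 5 days a week, and were sampled about 24 h after the last bout, while sedentary pigs stayed in their enclosures. There were 7 sedentary and 7 exercised brachial samples and 7 sedentary and 8 exercised internal mammary samples, 29 arrays from 15 pigs, of which 14 gave both arteries. Breed, age and sex are not given in the sources used here. The scrape is enriched in endothelial cells and is not a pure isolate, and in such bulk RNA fewer cells of a type and less RNA per cell cannot be told apart.

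Complex I (the NDUF genes) passes electrons from NADH to ubiquinone and pumps protons. Complex II (SDHA to SDHD), which is also an enzyme of the tricarboxylic acid cycle, feeds electrons from succinate into the same pool. Complex III hands them to the mobile carrier cytochrome c, complex IV passes them on to oxygen, and complex V, the ATP synthase, uses the proton gradient to make ATP. Endothelial cells are known for taking much of their ATP from glycolysis, and endurance training is known for raising mitochondrial content in skeletal muscle. All complexes except complex II also hold subunits encoded in mitochondrial DNA. None of the 26 listed mitochondrially encoded genes had a probe set by symbol, so the values cover the nuclear subunits alone.

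The values are log2 intensities. Probes differ in how brightly they bind, so levels are compared between samples of a gene and never between genes. Members had means over all arrays from 7.38 (COX8H) to 13.05 (ATP5E), where array medians ran from 7.13 to 7.28. Means of the 12 measured endothelial markers ran from 4.03 (KDR) to 13.97 (PECAM1), with CDH5 at 12.39 and VWF at 7.53. Those of the 13 measured smooth muscle markers ran from 7.72 (MYLK) to 13.76 (ACTA2). Probe sets for bacterial control RNA averaged 0.78 higher on the brachial array, in 14 of 14 pigs (range 0.51 to 1.19), so artery and array handling cannot be told apart. The ratio of 28S to 18S rRNA, a measure of RNA integrity from the labels, ran from 1.07 to 1.29 in sedentary and from 1.25 to 1.47 in exercised internal mammary samples. In brachial samples the ratio ran from 1.21 to 1.79 (sedentary) and from 1.20 to 1.70 (exercised). With that ratio as a covariate NDUFA12 and ATP5J, described below, kept their calls. Log2 changes, given with their SE after ±, and adjusted p-values come from limma, with Benjamini-Hochberg adjustment over 23999 probe sets. A gene is said to have passed, risen or fallen where the adjusted p was under 0.05.

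Group means of complexes I, II, IV and V differed little between the 4 groups, and those of complex III and CYCS lay further apart. They ran from -0.033 to 0.021 for complex II and from -0.053 to 0.035 for complex IV. Averaged over its 32 members and set against the gene means, complex I lay at 0.0024 ± 0.12 (SD, n = 7) in sedentary and 0.011 ± 0.13 (n = 7) in exercised brachial samples. In the internal mammary artery it lay at 0.025 ± 0.092 (n = 7) and -0.034 ± 0.064 (n = 8). Pigs of the same group stood further apart than these means. Complex V lay at 0.0068 ± 0.10 and -0.032 ± 0.083 in the brachial artery and at 0.048 ± 0.086 and -0.020 ± 0.050 in the internal mammary artery. The brachial sample of exercised pig 10_5 was the highest of its group for each complex, at 0.26 for complex I. That sample also had the highest 28S/18S ratio of its group, 1.70, and the relation between ratio and complex means was not tested. Complex III had group means of -0.061 ± 0.10 and -0.095 ± 0.12 in the brachial artery and of 0.14 ± 0.11 and 0.016 ± 0.093 in the internal mammary artery. For CYCS, a lone gene, they were 0.15 ± 0.29 and -0.24 ± 0.24, and 0.23 ± 0.34 and -0.12 ± 0.47.

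**Figure D1:**
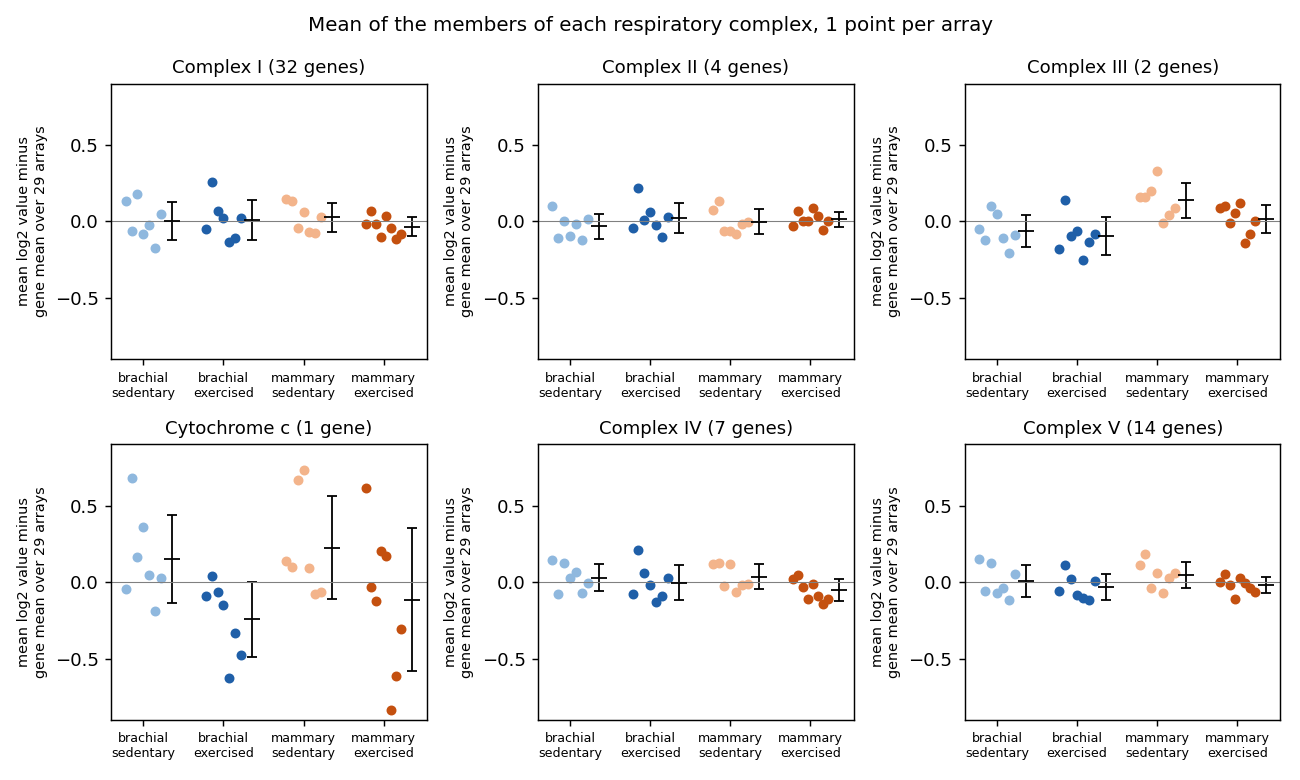
Mean of the members of each respiratory complex on each array (y axis, log2 value minus the gene's mean over 29 arrays) in the 4 groups (x axis); points are arrays, and the bar gives the group mean and SD. Groups overlap in every panel, and CYCS, a lone gene, spreads more widely than the complex means.

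The first comparison asked which subunits differed between exercised and sedentary pigs. In the brachial artery 2 of 60 members passed, beside 1.63% of all probe sets. These were NDUFA12, higher (beside 1.02% of all probe sets), and ATP5J, lower (beside 0.613%). For the internal mammary artery the count was 1 of 60, beside 0.596% of all probe sets. ATP5J was lower there (beside 0.138%) and 0 members were higher (beside 0.458%). With both arteries averaged, 3 of 60 passed, beside 4.68%: NDUFA12 rose (beside 2.88%), and ATP5J and NDUFB2 fell (beside 1.8%). These shares lay near those of all probe sets. The median change over the 60 members was -0.0091 in the brachial artery, -0.061 in the internal mammary artery and -0.032 on average, where all probe sets had medians of 0.011, 0.0052 and 0.0095. In the internal mammary artery 48 of 60 members lay below 0, where 52% of all probe sets lay above it. The members share arrays and pigs and are not independent, and this shift as a whole was not tested. In that artery the 28S/18S ratio also ran from 1.07 to 1.29 in sedentary and from 1.25 to 1.47 in exercised samples.

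**Figure D2:**
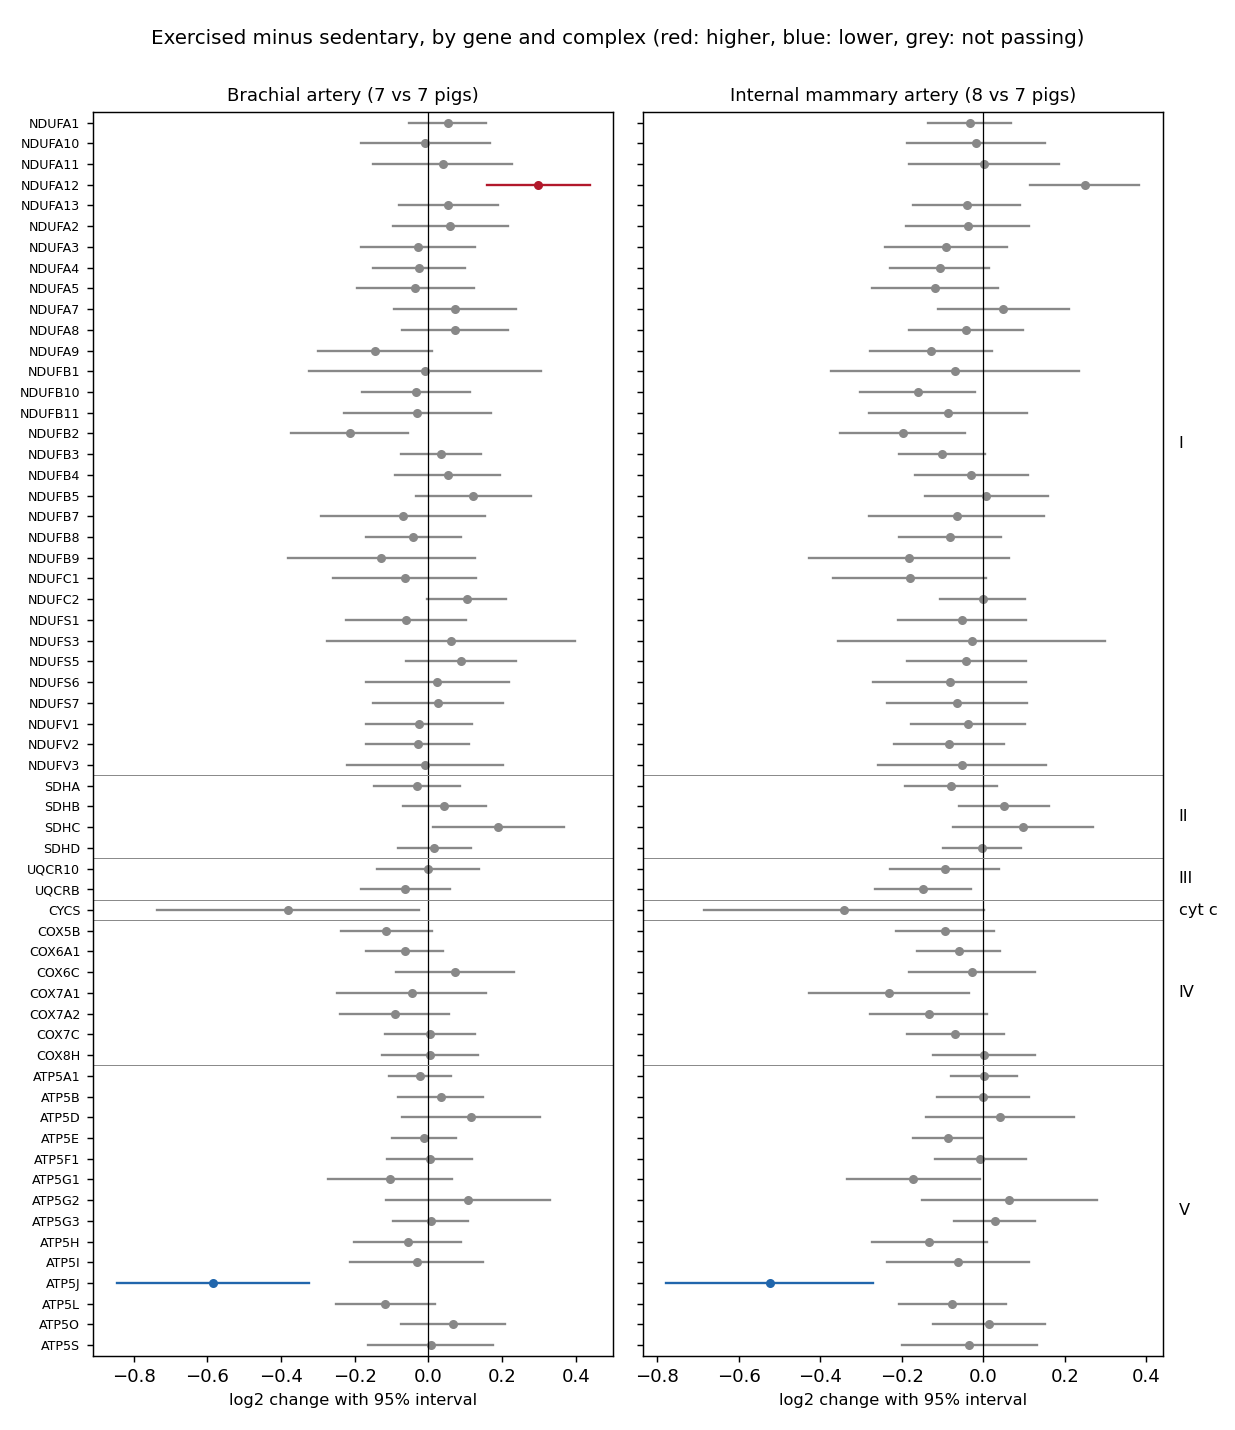
Exercised minus sedentary log2 change (x axis) with its 95% interval for each of the 60 members (y axis), grouped by complex, in the brachial artery on the left and the internal mammary artery on the right. Colour marks genes that passed: NDUFA12 (higher) and ATP5J (lower) in the brachial artery, ATP5J (lower) alone in the internal mammary artery.

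Most of these changes could be bounded. The 95% interval lay wholly within a 1.25-fold change for 51 of 60 members in the brachial artery, beside 53.5% of all probe sets. It did so for 50 of 60 in the internal mammary artery, beside 58.8%, and for 55 of 60 on average, beside 69%. The median SE of the members was 0.073 in the brachial artery against 0.10 over all probe sets. Complex II shows the width of these bounds. SDHA, the flavoprotein, gave -0.032 (95% interval -0.15 to 0.085) in the brachial artery, and SDHB, the iron-sulfur subunit, gave 0.043 (-0.070 to 0.16).

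In complex I, NDUFA12 was the clearest member. It is an accessory subunit of the arm of the complex that reaches into the matrix and oxidises NADH. In the brachial artery its lowest, median and highest log2 values were 11.39, 11.59 and 11.68 in sedentary pigs and 11.75, 11.85 and 12.03 in exercised pigs. The groups did not overlap, which held for 2 of 60 members (NDUFA12 and ATP5J) and for 0.604% of all probe sets. Internal mammary values were 11.51, 11.61 and 11.88 in sedentary and 11.74, 11.84 and 12.06 in exercised pigs. There sedentary pig 10_2, at 11.88, reached into the exercised range, and 0 of 60 members had groups without overlap, beside 0.288% of all probe sets.

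NDUFA12 rose 1.23-fold in the brachial artery (0.30 ± 0.068, adjusted p = 0.0228) and was 1.19-fold higher in the internal mammary artery, which did not pass (0.25 ± 0.066, adjusted p = 0.0708). On average it rose by 0.27 ± 0.053 (adjusted p = 0.00334), with 15 of 15 exercised samples above the sedentary mean of their artery. The brachial call was lost without pig 10_5 (0.28, adjusted p = 0.0626), without pig 12_5 (0.28, adjusted p = 0.0652) and without pig 15_2 (0.29, adjusted p = 0.0515). It was also lost with the brachial artery fitted alone (0.30, adjusted p = 0.0565). Without pig 10_2 the internal mammary change passed (0.29, adjusted p = 0.0282). The average call held without each of the 15 pigs in turn.

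NDUFB2, an accessory subunit of the membrane arm of complex I, was lower in exercised pigs. Its lowest, median and highest values were 10.53, 10.68 and 10.96 in sedentary and 10.27, 10.51 and 10.69 in exercised brachial samples. They were 10.51, 10.70 and 10.93 against 10.31, 10.51 and 10.77 in the internal mammary artery. The groups overlapped in both arteries, with 14 of 15 exercised samples below the sedentary mean of their artery. The average change passed narrowly (-0.21 ± 0.060, adjusted p = 0.0449), and those in the brachial (-0.21 ± 0.077, adjusted p = 0.151) and internal mammary artery (-0.20 ± 0.075, adjusted p = 0.239) did not. The average call was kept when pig 10_5, 13_2, 15_1 or 15_4 was left out and lost for each of the other 11, with adjusted p up to 0.105. It was also lost when arrays were centred on their medians (-0.20, adjusted p = 0.0659). A fit to the mean of both arteries in each of 14 pigs lost it as well (-0.20, adjusted p = 0.148).

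The other 30 members of complex I did not pass. NDUFA9, an accessory subunit where both arms meet, gave -0.14 ± 0.059 on average (adjusted p = 0.195). The core subunits along the electron path gave small values: -0.031 for NDUFV1, -0.057 for NDUFS1, -0.020 for NDUFS7 and -0.056 for NDUFV2. In complex II the membrane anchor SDHC had the widest difference, 0.14 ± 0.067 on average (adjusted p = 0.247), with values of 9.90, 10.20 and 10.43 in sedentary and 10.07, 10.34 and 10.73 in exercised brachial samples, which overlapped. In complex III UQCRB gave -0.11 ± 0.046 (adjusted p = 0.204) and UQCR10 -0.048 ± 0.053 (adjusted p = 0.69).

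CYCS, the electron carrier between complexes III and IV, differed more than any member except ATP5J on average, without passing. Its lowest, median and highest values were 9.90, 10.14 and 10.77 in sedentary and 9.46, 9.94 and 10.13 in exercised brachial samples. They were 10.01, 10.19 and 10.83 against 9.26, 10.02 and 10.71 in the internal mammary artery. The groups overlapped in both arteries, and 14 of 15 exercised samples lay below the sedentary mean of their artery. The changes were -0.38 ± 0.17 (adjusted p = 0.28) and -0.34 ± 0.17 (adjusted p = 0.413), and -0.36 ± 0.13 on average (adjusted p = 0.125). With days of collection (from the date in the sample labels) as a covariate the average change passed (-0.40, adjusted p = 0.0391).

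In complex IV 0 of 7 members passed in limma in each artery or on average, and those with an unadjusted p under 0.05 were COX7A1 in the internal mammary artery and COX5B on average. COX5B, a subunit on the matrix side, gave -0.10 ± 0.047 on average (adjusted p = 0.227), and COX6A1, the widely expressed form of subunit 6A, -0.062 ± 0.040 (adjusted p = 0.434). Of the isoform pair COX7A1, typical of heart and muscle, and COX7A2, found in most tissues, COX7A1 gave -0.14 ± 0.077 (adjusted p = 0.345) and COX7A2 -0.11 ± 0.056 (adjusted p = 0.282). COX8H, the heart form of subunit 8, gave 0.0032 ± 0.049 (adjusted p = 0.982).

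**Figure D3:**
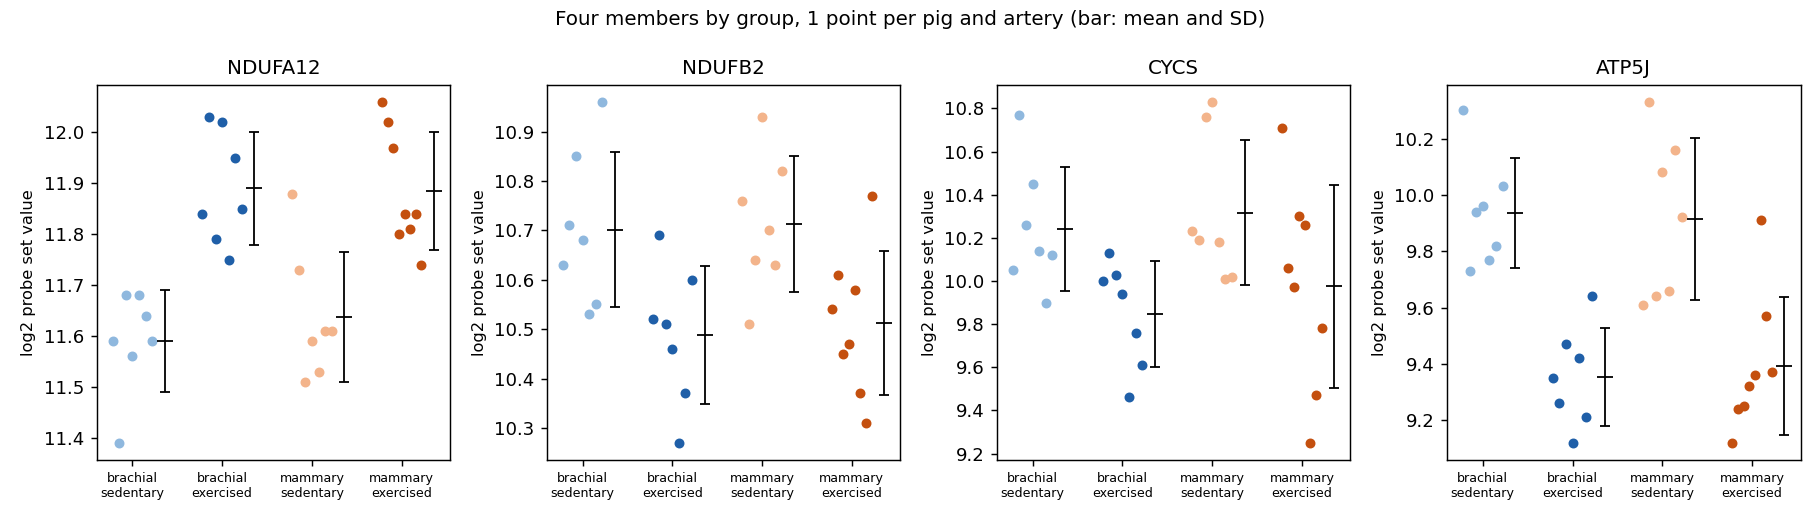
Log2 value (y axis) of NDUFA12, NDUFB2, CYCS and ATP5J in the 4 groups (x axis); points are samples, and the bar gives the mean and SD. In the brachial artery the sedentary and exercised points do not overlap for NDUFA12 and ATP5J and do for NDUFB2 and CYCS.

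In complex V, ATP5J was the member with the widest difference. It encodes coupling factor 6, part of the peripheral stalk that holds the catalytic head of the ATP synthase against rotation. Its lowest, median and highest values were 9.73, 9.94 and 10.30 in sedentary and 9.12, 9.35 and 9.64 in exercised brachial samples, which did not overlap. They were 9.61, 9.92 and 10.33 against 9.12, 9.34 and 9.91 in the internal mammary artery. There the groups overlapped through exercised pig 14_3, at 9.91, the other exercised samples lying below the sedentary range.

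ATP5J fell 1.50-fold in the brachial artery (-0.59 ± 0.13, adjusted p = 0.0169) and 1.44-fold in the internal mammary artery (-0.52 ± 0.12, adjusted p = 0.0412). The average change was -0.55 ± 0.10 (adjusted p = 0.00192), and 15 of 15 exercised samples lay below the sedentary mean of their artery. The brachial call was lost without pig 12_5 (-0.55, adjusted p = 0.0554). The internal mammary call was kept only when pig 10_2, 11_4 or 14_3 was left out. Over all 15 left out in turn the value ran from -0.60 to -0.45, with adjusted p up to 0.114. The call was also lost with the internal mammary artery fitted alone (-0.52, adjusted p = 0.122). The average call held without each pig in turn.

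The other probe set of ATP5J gave another value. It was dim, with a mean of 2.75, and stood at 0.21 (adjusted p = 0.335) for the brachial samples and 0.038 (adjusted p = 0.928) for the internal mammary samples. When the probe sets of each gene were averaged, ATP5J did not pass in the brachial artery (-0.19, adjusted p = 0.226) or the internal mammary artery (-0.24, adjusted p = 0.121) and did on average (-0.21, adjusted p = 0.0348).

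The other 13 members of complex V did not pass. A trio of genes encodes the same mature subunit c of the rotor ring: on average ATP5G1 gave -0.14 ± 0.064 (adjusted p = 0.24), ATP5G2 0.086 ± 0.084 (adjusted p = 0.649) and ATP5G3 0.017 ± 0.039 (adjusted p = 0.867). The catalytic head subunits ATP5A1 and ATP5B gave -0.011 and 0.016. The stalk partners of ATP5J gave -0.0020 for ATP5F1 (subunit b), -0.094 for ATP5H (subunit d) and 0.041 for ATP5O (the oligomycin sensitivity protein). The difference between these genes and ATP5J was not tested.

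Macrophage markers moved with training in the brachial artery. Of 9 measured, 3 fell there (beside 0.613% of all probe sets): C1QC, FCER1G and TYROBP, by 0.81, 0.88 and 0.66 on the log2 scale. All 9 lay below 0. Relative to the gene means, the marker mean ran from -0.31 to 0.80 in sedentary and from -0.65 to -0.12 in exercised brachial samples. It ran from -0.16 to 0.70 and from -0.34 to 0.48 in the internal mammary artery, where 0 of 9 passed in limma and 0 had an unadjusted p under 0.05. Of 6 markers of T and B cells, the B cell gene CD79B rose in the internal mammary artery (1.46 ± 0.31, adjusted p = 0.0244), from a mean of 6.48 to 7.95. In that artery 0.458% of all probe sets rose. The mean of the 6 ran from -0.50 to 0.14 in sedentary and from -0.14 to 0.51 in exercised samples there. Group means of the other markers moved less, as from 5.44 to 5.34 for CD3E and from 5.60 to 5.75 for CD3G. The part of CD79B in the changes of ATP5J and SIRT3 in that artery was not tested. With the macrophage mean as a covariate neither brachial call was kept, at 0.27, adjusted p = 0.246 for NDUFA12 and -0.54, adjusted p = 0.202 for ATP5J, nor was the internal mammary call of ATP5J (-0.52, adjusted p = 0.0508) or the average call of NDUFB2 (-0.19, adjusted p = 0.178). The other average changes passed, at 0.26, adjusted p = 0.0275 for NDUFA12 and -0.53, adjusted p = 0.0166 for ATP5J. All these estimates stayed near those without the covariate. The marker mean itself differed with training in the brachial artery (group means 0.12 and -0.43), so the covariate and training cannot be told apart there.

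The sample labels give a date, taken here as the day of collection. Neither the pigs with the earlier dates nor those with the later ones gave a brachial call by themselves. Among the 8 pigs collected first NDUFA12 was at 0.32, adjusted p = 0.216, and among the 7 collected last at 0.26, adjusted p = 0.296. The same pigs gave -0.62, adjusted p = 0.153 and -0.52, adjusted p = 0.33 for ATP5J. On average NDUFA12 passed in neither set (0.30, adjusted p = 0.0791, and 0.24, adjusted p = 0.172), and ATP5J passed among the first pigs (-0.65, adjusted p = 0.0364) and not among the last (-0.44, adjusted p = 0.239). Fewer pigs enter each of these fits.

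Whether training acted differently on the members in each artery was tested as an interaction. With limma, 0 of 60 members passed, beside 0% of all probe sets, and 1 member, NDUFB3, had an unadjusted p under 0.05 (difference of changes 0.14 ± 0.064, unadjusted p = 0.0452, adjusted p = 1). The 95% interval of the difference lay within a 1.25-fold change for 52 of 60 members, beside 46.1% of all probe sets. The brachial change was the more positive for 48 of 60 members, with a median difference of 0.054, where all probe sets had a median of 0.0040 with 51.4% above 0. The members share arrays and pigs and are not independent. Leaving out each pig in turn moved the median from 0.026 (without pig 11_1) to 0.096 (without pig 11_4).

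The other comparison of the design was between the arteries. Among sedentary pigs 11 of 60 members passed, beside 34.8% of all probe sets, with 3 higher (beside 20.5%) and 8 lower (beside 14.2%) in the brachial artery. Among exercised pigs 11 of 60 passed, beside 41.2%, with 7 higher (beside 24.2%) and 4 lower (beside 17%). Averaged over training, 19 of 60 passed, beside 54.3%, with 7 higher (beside 31.8%) and 12 lower (beside 22.5%). The members' shares of calls lay below those of all probe sets in each of these comparisons, but their split into higher and lower depended on the scaling. With each array centred on its median it was 5 higher and 4 lower in sedentary pigs, 11 and 2 in exercised pigs and 14 and 5 on average. Quantile normalization gave 3 and 6, 10 and 3, and 11 and 6. The 95% interval lay within a 1.25-fold difference for 48 members in sedentary pigs (beside 42.1% of all probe sets), 53 in exercised pigs (beside 40.3%) and 56 on average (beside 54%). The widest average difference was 1.28-fold, and the median size over the 60 was 0.079 against 0.17 over all probe sets.

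In complex I the members split in both directions on average, 5 of 32 higher and 5 lower in the brachial artery. NDUFV3, an accessory subunit near the NADH-binding site, had lowest, median and highest values of 7.85, 8.05 and 8.30 in sedentary brachial and 7.50, 7.62 and 8.36 in sedentary internal mammary samples. Exercised pigs gave 7.85, 8.14 and 8.23 against 7.57, 7.70 and 7.90. The groups overlapped, although the brachial value was the higher within 13 of 14 pigs, and the average difference was 0.32 ± 0.063 (adjusted p = 0.000103).

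NDUFA4, listed by name with complex I but now regarded as a subunit of complex IV, was higher in the brachial artery in 14 of 14 pigs. Its values were 12.50, 12.63 and 12.77 in sedentary and 12.38, 12.60 and 12.91 in exercised brachial samples. The internal mammary samples held 12.44, 12.52 and 12.60, and 12.35, 12.41 and 12.46. These ranges overlapped, and the average difference was 0.17 ± 0.037 (adjusted p = 0.000335). NDUFA3, NDUFB3 and NDUFC2, further accessory subunits, were higher by 0.15, 0.13 and 0.10. The 28S/18S ratio was also higher in the brachial sample, in 11 of 14 pigs and by 0.14 on average, and as a covariate it ended the calls of NDUFA3 (0.10, adjusted p = 0.12) and NDUFC2 (0.065, adjusted p = 0.135). So did the macrophage marker mean, at 0.11, adjusted p = 0.112 for NDUFA3 and 0.083, adjusted p = 0.0843 for NDUFC2. On the lower side NDUFA2 differed by -0.11, NDUFA5 by -0.13, NDUFA7 by -0.16, NDUFA9 by -0.12 and NDUFS6 by -0.13, of which NDUFS6 was at the threshold (adjusted p = 0.0499). None of these 5 passed with arrays centred on their medians, where the values ran from -0.10 to -0.060.

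By their chosen probe sets, SDHA and SDHB of complex II differed in opposite directions. SDHA, which holds the flavin and oxidises succinate, had lowest, median and highest values of 10.36, 10.49 and 10.57 in sedentary brachial and 10.50, 10.67 and 10.84 in sedentary internal mammary samples, and of 10.34, 10.44 and 10.50 against 10.36, 10.61 and 10.69 in exercised pigs. It was lower in the brachial artery in 12 of 14 pigs (-0.18 ± 0.034, adjusted p = 6.71e-05). SDHB, its iron-sulfur partner, had 11.44, 11.59 and 11.72 against 11.34, 11.41 and 11.59 in sedentary and 11.51, 11.58 and 11.84 against 11.42, 11.53 and 11.56 in exercised pigs. All these groups overlapped, and SDHB was higher in the brachial artery in 13 of 14 pigs (0.13 ± 0.034, adjusted p = 0.00207). The other SDHB probe set, with a mean of 9.76, lay the other way without passing. Its mean difference within pigs was -0.11, and it was higher in the brachial artery in 4 of 14 pigs. The membrane anchors SDHC and SDHD gave -0.013 and 0.021 and did not pass.

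Both measured members of complex III were lower in the brachial artery. UQCRB, a subunit that binds ubiquinone, had values of 11.17, 11.24 and 11.37 in sedentary brachial and 11.29, 11.50 and 11.68 in sedentary internal mammary samples. Exercised pigs gave 11.03, 11.18 and 11.41 against 11.20, 11.35 and 11.49. The groups overlapped, and it was lower within 14 of 14 pigs (-0.20 ± 0.036, adjusted p = 4.18e-05). Its probe set carries the suffix that marks probes shared by several transcripts. The small subunit UQCR10 was lower in 12 of 14 pigs (-0.11 ± 0.041, adjusted p = 0.021), a call lost with arrays centred on their medians (-0.062, adjusted p = 0.231) and without pig 10_1 (-0.10, adjusted p = 0.05).

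In complex IV, COX8H had the widest difference of all 60 members. Its lowest, median and highest values were 7.46, 7.55 and 7.68 in sedentary brachial and 7.03, 7.24 and 7.34 in sedentary internal mammary samples, which did not overlap. In sedentary pigs 1 of 60 members had groups without overlap, beside 7.05% of all probe sets. Exercised pigs gave 7.31, 7.60 and 7.68 against 7.08, 7.22 and 7.37, which overlapped through brachial pig 10_1, at 7.31. COX8H was 1.28-fold higher in the brachial artery (0.35 ± 0.038, adjusted p = 1.12e-08), in 13 of 14 pigs.

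Skeletal muscle also makes the heart forms of complex IV subunits. Of its 16 measured markers, 9 were higher in the brachial artery (beside 31.8% of all probe sets) and 0 lower (beside 22.5%), with a median of 0.15. All but TCAP and ENO3 had means over all arrays below the array medians, down to 3.88 for NEB, and CKM, the muscle creatine kinase, gave -0.14 (adjusted p = 0.566). The mean of the 16 relative to the gene means ran from -0.050 to 0.19 and from -0.10 to 0.23 in sedentary and exercised brachial samples, and from -0.21 to 0.20 and from -0.20 to 0.10 in internal mammary samples. The part of these markers in the COX8H difference was not tested. The muscle isoform COX7A1 gave -0.068 ± 0.059 (adjusted p = 0.345). COX6C, a small subunit, was lower in 11 of 14 pigs (-0.13 ± 0.047, adjusted p = 0.0175), a call lost with arrays centred on their medians (-0.083, adjusted p = 0.129).

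In complex V all 3 members that passed on average were lower in the brachial artery. ATP5S, the coupling factor B, had values of 8.26, 8.55 and 8.96 in sedentary brachial and 8.58, 8.94 and 9.10 in sedentary internal mammary samples, which overlapped, and of 8.30, 8.57 and 8.80 against 8.81, 8.87 and 8.92 in exercised pigs, which did not. It was lower within 14 of 14 pigs (-0.33 ± 0.050, adjusted p = 3.71e-06). In exercised pigs 3 of 60 members had groups without overlap (ATP5S, ATP5A1 and NDUFB3), beside 9.59% of all probe sets.

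ATP5A1, the alpha subunit of the catalytic head, was lower in 14 of 14 pigs by a small and tight margin (-0.14 ± 0.025, adjusted p = 1.80e-05). Its range was 12.58 to 12.76 and 12.57 to 12.73 in sedentary and exercised brachial samples and 12.76 to 12.90 and 12.76 to 12.89 in internal mammary samples. ATP5E, the epsilon subunit of the central stalk, was lower in 13 of 14 pigs (-0.12 ± 0.026, adjusted p = 0.000373). ATP5J, which differed with training, gave -0.0092 ± 0.077 (adjusted p = 0.93) between arteries, and 0.12, adjusted p = 0.0259 with its probe sets averaged.

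Markers of other cell types were compared between these scrapes as well. Of 13 smooth muscle markers 3 were higher in the brachial artery (DES by 2.12, MYL9 by 1.21 and CNN1 by 0.82), beside 31.8% of all probe sets. The lower ones were 2 (MYLK by -0.87 and SYNM by -0.33), beside 22.5%. The smooth muscle marker mean of a pig differed by -1.58 to 1.48 between its arteries. The fibroblast marker mean was higher in the brachial artery in 13 of 14 pigs, by 0.41 on average. Of its 6 markers DPT differed most, with group means of 9.02 (sedentary) and 9.87 (exercised) in brachial and 7.22 and 7.19 in internal mammary samples. Means of the other markers lay closer together, and COL1A2 was lower in the brachial artery (8.58 and 8.63 against 8.69 and 8.81). The macrophage marker mean was lower in the brachial artery in 11 of 14 pigs (mean difference -0.29), with 5 of 9 markers lower (beside 22.5% of all probe sets) and 0 higher (beside 31.8%). As a covariate it took the members called from 11 to 6 in exercised pigs. COX8H, NDUFV3, NDUFA4, UQCRB, ATP5S and ATP5A1 passed in the average comparison with the smooth muscle mean as a covariate, and in the other 28 alternatives run. COX8H then ranged from 0.33 to 0.41 and ATP5S from -0.43 to -0.28. SDHA lost the call among the 8 pigs collected first (-0.16, adjusted p = 0.0576). SDHB lost it there (0.13, adjusted p = 0.11), with the 28S/18S covariate (0.086, adjusted p = 0.0531) and with its probe sets averaged (0.015, adjusted p = 0.757).

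Several members had further probe sets that gave another answer between the arteries. The dimmer SDHA probe set had lowest, median and highest values of 7.32, 7.72 and 7.86 in sedentary brachial and 8.39, 8.98 and 9.52 in sedentary internal mammary samples. In exercised pigs it held 7.36, 7.57 and 7.74 against 8.96, 9.07 and 9.42. Neither pair of groups overlapped. Its difference was -1.43 ± 0.070 (adjusted p = 1.26e-15), lower in 14 of 14 pigs, where the brighter SDHA probe set gave -0.18 and the mean of both -0.81, adjusted p = 5.94e-14. Between exercised and sedentary pigs it gave 0.0090 on average (adjusted p = 0.972).

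For NDUFV2, a core iron-sulfur subunit, the brightest probe set gave -0.089 ± 0.041 (adjusted p = 0.0686), while its further probe sets passed in the other direction, at 0.34 ± 0.047 (adjusted p = 6.60e-07) and 0.41 ± 0.072 (adjusted p = 2.22e-05). With its probe sets averaged, NDUFV2 turned to 0.22 and passed. NDUFS3, another core subunit, gave 0.16 ± 0.10 by its brightest probe set, -0.026 by the next and -0.54 ± 0.16 (adjusted p = 0.00551) by the dimmest, where values within a pig ran from -2.09 to 0.47. NDUFB3 gave 0.13 by the chosen probe set and -0.11 ± 0.046 (adjusted p = 0.0493) by the other. ATP5I, a subunit of the membrane part, gave -0.11 (adjusted p = 0.0729) and 0.25 (adjusted p = 0.00182). The probe sets of ATP5S went the same way, at -0.33 and -0.25 ± 0.044 (adjusted p = 2.86e-05), both lower in 14 of 14 pigs. With training, 0 of the 15 further probe sets passed in limma in either artery or on average, and those of ATP5S and NDUFA1 had an unadjusted p under 0.05. Which transcript each probe set reads was not analysed here.

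**Figure D4:**
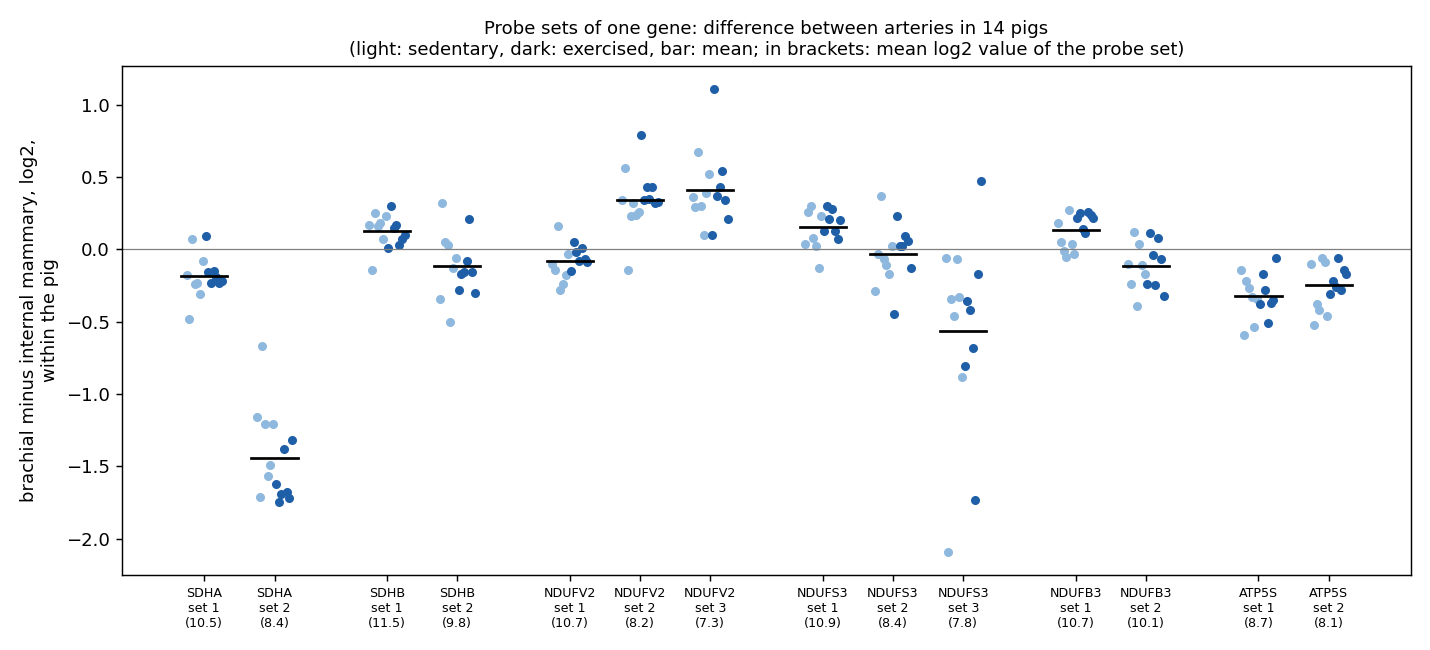
Brachial minus internal mammary log2 difference within each of 14 pigs (y axis) for the probe sets of SDHA, SDHB, NDUFV2, NDUFS3, NDUFB3 and ATP5S (x axis, ordered by mean brightness); light points are sedentary and dark points exercised pigs, and the bar is the mean. The probe sets of ATP5S lie below 0, those of SDHA lie far apart, and those of NDUFV2 lie on both sides of 0.

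Factors that build the complexes were taken from a list of 55 assembly genes, of which 19 had a probe set. With training 1 of 19 passed in the brachial artery (beside 1.63% of all probe sets) and 0 in the internal mammary artery (beside 0.596%), where 5 had an unadjusted p under 0.05 in limma. On average 2 passed (beside 4.68%). All were upward. NDUFAF2, an assembly factor of complex I and a paralog of NDUFA12, had lowest, median and highest values of 8.50, 8.60 and 8.66 in sedentary and 8.64, 9.00 and 9.16 in exercised brachial samples. They were 8.22, 8.30 and 8.59 against 8.39, 8.63 and 8.87 in the internal mammary artery. The groups overlapped in both arteries. NDUFAF2 rose by 0.33 ± 0.083 in the brachial artery (adjusted p = 0.0334) and by 0.30 ± 0.064 on average (adjusted p = 0.00719), with 15 of 15 exercised samples above the sedentary mean of their artery.

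The other NDUFAF2 probe set gave -0.0012 on average (adjusted p = 0.994), and the one that rose carries the suffix of shared probes. Its brachial call was kept without pig 10_1, 10_2, 12_2, 13_2, 14_3, 15_1 or 15_2 and lost for the other 8 left out in turn (adjusted p up to 0.0883), while the average call held for all 15. The brachial call was lost with that artery fitted alone (0.34, adjusted p = 0.0917). The average call was lost with a fit to the mean of both arteries in each pig (0.32, adjusted p = 0.0524). Both calls were lost with the macrophage covariate (0.27, adjusted p = 0.354 and 0.26, adjusted p = 0.0655).

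OXA1L, the insertase that places subunits of several complexes into the inner membrane, rose on average. Its values were 10.70, 10.76 and 10.90 in sedentary and 10.82, 10.99 and 11.08 in exercised brachial samples, and 10.39, 10.74 and 11.09 against 10.76, 10.89 and 11.18 in the internal mammary artery, with overlap in both. The average change was 0.20 ± 0.058 (adjusted p = 0.0462), a call kept without pig 11_1, 12_2, 13_2 or 15_4 and lost for the other 11 left out in turn (values 0.16 to 0.22, adjusted p up to 0.1). It was also lost with a fit to the mean of both arteries in each pig (0.21, adjusted p = 0.101). The same held with the macrophage covariate (0.19, adjusted p = 0.148) and with the 28S/18S covariate (0.19, adjusted p = 0.0799).

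Between arteries 7 of 19 assembly factors passed on average (beside 54.3% of all probe sets), 3 higher and 4 lower in the brachial artery. NDUFAF2 was higher (0.25 ± 0.050, adjusted p = 0.000125). LYRM7, an assembly factor of complex III, was lower (-0.37 ± 0.072, adjusted p = 0.000104), as were NDUFAF1 of complex I (-0.33 ± 0.062, adjusted p = 6.00e-05) and TACO1, which aids translation of a core subunit of complex IV (-0.23 ± 0.046, adjusted p = 0.000163).

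Of the tricarboxylic acid cycle and its entry enzyme 15 of 17 listed genes were measured. With training 0 of 15 passed in limma in either artery (an unadjusted p under 0.05 was found for 2 brachial and 3 internal mammary values) and 1 on average (beside 4.68% of all probe sets), MDH2, the mitochondrial malate dehydrogenase. Its lowest, median and highest values were 9.20, 9.69 and 9.80 in sedentary and 9.11, 9.24 and 9.51 in exercised brachial samples, and 9.49, 9.84 and 10.09 against 9.40, 9.55 and 9.85 in the internal mammary artery. The groups overlapped, and the average change was -0.25 ± 0.074 (adjusted p = 0.0455). That call was kept without pig 10_5, 11_1, 13_2 or 15_1 and lost for the other 11 left out in turn (values -0.30 to -0.21, adjusted p up to 0.108). It was also lost with a fit to the mean of both arteries in each pig (-0.24, adjusted p = 0.211) and with the macrophage covariate (-0.24, adjusted p = 0.166). Citrate synthase (CS), whose enzyme activity is often taken as a measure of mitochondrial content, gave -0.0091 on average by its chosen probe set (adjusted p = 0.956). That is an RNA value, and neither enzyme activity nor mitochondrial content was measured by these arrays.

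Between arteries 9 of 15 of these enzymes passed on average (beside 54.3% of all probe sets), 4 higher and 5 lower in the brachial artery. DLD, the dihydrolipoamide dehydrogenase shared by the pyruvate and oxoglutarate complexes, was lower in 14 of 14 pigs (-0.42 ± 0.042, adjusted p = 3.70e-09). OGDH, its partner in the oxoglutarate complex, was higher in 14 of 14 (0.23 ± 0.037, adjusted p = 9.20e-06). MDH2 was lower (-0.27 ± 0.057) and SUCLG1, a subunit of succinyl-CoA ligase, higher (0.18 ± 0.038). CS gave -0.022 by its chosen probe set and 0.45 (adjusted p = 2.25e-08) by the other.

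Of 24 listed regulators of mitochondrial biogenesis, 8 had a probe set. With training 2 of 8 passed in the brachial artery (1 up and 1 down, beside 1.63% of all probe sets) and 1 in the internal mammary artery (beside 0.596%). SIRT3, the main deacetylase of the mitochondrial matrix, rose in both arteries. Its lowest, median and highest values were 8.18, 8.39 and 8.61 in sedentary and 8.71, 8.94 and 9.22 in exercised brachial samples, which did not overlap. They were 8.13, 8.52 and 8.67 against 8.63, 8.88 and 9.11 in the internal mammary artery, with a slight overlap.

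The SIRT3 changes were 0.56 ± 0.093 (adjusted p = 0.00405) and 0.42 ± 0.090 (adjusted p = 0.0267), and 0.49 ± 0.072 on average (adjusted p = 0.000374), with 15 of 15 exercised samples above the sedentary mean of their artery. The brachial call held without each pig in turn and was lost with the macrophage covariate (0.39, adjusted p = 0.153). Over all alternatives the brachial call passed in 26 of 29 (adjusted p up to 0.155) and the average call in 27 of 29 (adjusted p up to 0.0668). The internal mammary call was lost without pig 10_5, 11_3, 12_3, 15_1 or 15_2 (values 0.37 to 0.46, adjusted p up to 0.078) and with the internal mammary artery fitted alone (0.42, adjusted p = 0.116).

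PPRC1, a coactivator related to PGC-1, fell in the brachial artery and on average. Its values were 8.06, 8.33 and 8.97 in sedentary and 7.51, 7.76 and 8.24 in exercised brachial samples, and 7.93, 8.43 and 9.10 against 7.59, 7.87 and 8.25 in the internal mammary artery. The groups overlapped, and 15 of 15 exercised samples lay below the sedentary mean of their artery. The brachial change was -0.53 ± 0.14 (adjusted p = 0.0442) and the average -0.53 ± 0.11 (adjusted p = 0.00443). The brachial call was kept without pig 10_1, 12_2, 15_1, 15_4 or 17_1 and lost for the other 10 left out in turn (values -0.60 to -0.43, adjusted p up to 0.121). It was also lost with the brachial artery fitted alone (-0.54, adjusted p = 0.0893), and the average call with a fit to the mean of both arteries in each pig (-0.55, adjusted p = 0.0567). Both calls were lost with the macrophage covariate (-0.28, adjusted p = 0.576, and -0.39, adjusted p = 0.0697). The other PPRC1 probe set gave -0.084 on average (adjusted p = 0.653).

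PPARGC1A, which encodes PGC-1alpha itself, was dim, with a mean over all arrays of 3.30. It did not pass with training in the brachial (0.23 ± 0.072, adjusted p = 0.0931) or internal mammary artery (-0.10 ± 0.070, adjusted p = 0.631). In exercised pigs its brachial value exceeded the internal mammary value in 7 of 7 pigs (0.36 ± 0.061, adjusted p = 3.11e-05). TFAM, which packages and helps transcribe mitochondrial DNA, was lower in the brachial artery on average by its chosen probe set (-0.24 ± 0.039, adjusted p = 9.46e-06), and its further probe sets gave -0.47, -0.00064 and 0.25.

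**Figure D5:**
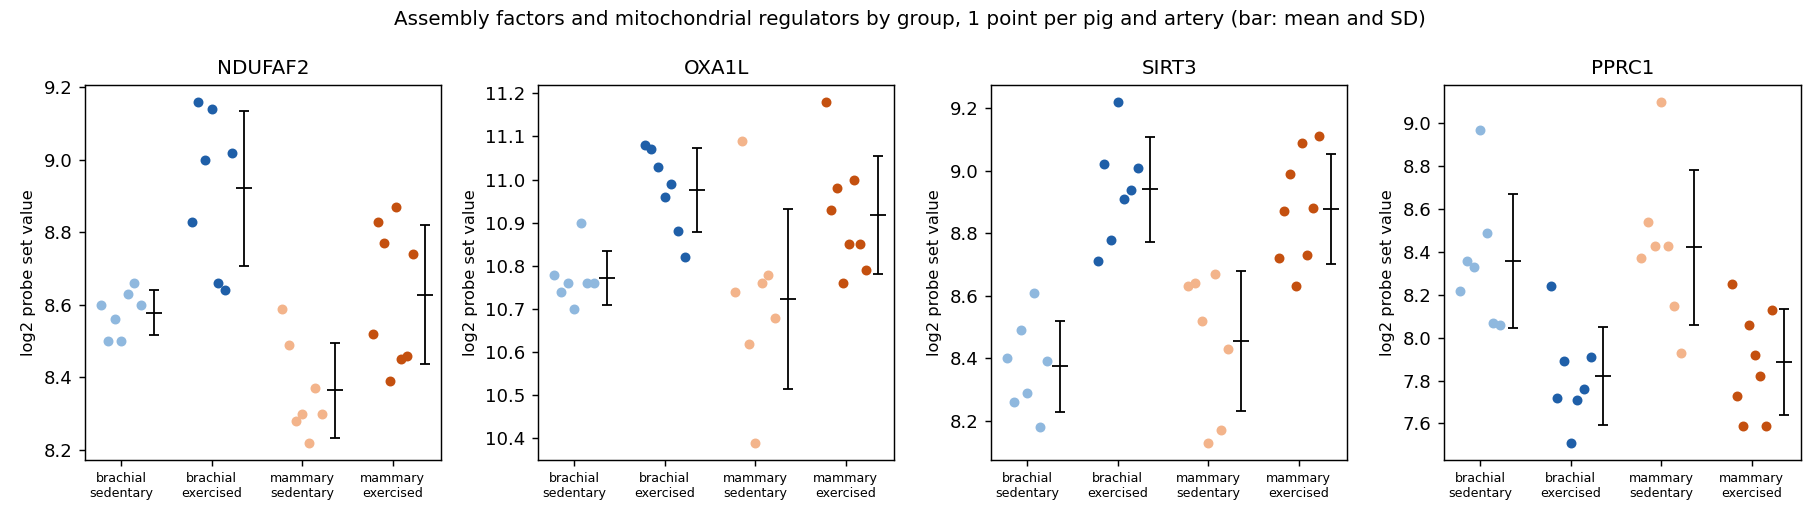
Log2 value (y axis) of the assembly factors NDUFAF2 and OXA1L and the regulators SIRT3 and PPRC1 in the 4 groups (x axis); points are samples, and the bar gives the mean and SD. In the brachial artery the sedentary and exercised points of SIRT3 do not overlap, and those of the other 3 genes do.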

How the data were processed

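Single-colour porcine oligonucleotide arrays measured RNA from luminal scrapes. The authors deposited log2 probe set intensities. The submitters' processing notes name affy with no version; how probes were summarised, corrected and normalized is not given in the sources used here. Groups were read from sample titles and treatment tags, because the exercised internal mammary samples carry a source field that says sedentary. Symbols come from the platform annotation: of 23999 probe sets (124 controls left out) 10069 had 1 symbol, 198 several and 13732 none.

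Group means (4 in all) were estimated per probe set by limma 3.58.1 under R 4.3.3, with pigs entered as a random block whose consensus correlation was 0.255. The arteries are paired because they come from the same pig. Training cannot be fitted with pig as a fixed block, since each pig had a single training state. In that alternative each artery was fitted alone for training, and the average used the mean of both arteries in each of 14 pigs. Comparisons between arteries used differences within those pigs. Comparisons were exercised minus sedentary in each artery and averaged, brachial minus internal mammary in each training group and averaged, and the interaction, with Benjamini-Hochberg adjustment at 0.05. The fit was tested on simulated data. Named members are those that passed in a comparison, the 2 of smallest p in each complex for training and for artery, the isoform pairs, and members whose further probe sets passed in the other direction; in the pathway lists, up to 4 genes that passed. Other members and list genes in the text were named for their role after their values were seen. The members, lists and tests were chosen with earlier results of these data known. Alternatives, 26 planned and 3 added after seeing the data (each collection period alone, and the macrophage marker mean as a covariate), are given below. Arrays have no depth, so their number limits the precision. Python 3.11.15 with matplotlib 3.10.9 drew the figures.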

Additional observations from a re-analysis of the deposited data

Results flagged for a closer look

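In 164 sets of values (34 named members and the mean of each complex and of all members, in each of 4 groups) 9 held a sample set apart from the rest of its group by Dixon's criterion, which chance alone passes in about 1 of 20 groups. In sedentary brachial samples ATP5E was high at 13.14 in pig 11_4 and NDUFA12 low at 11.39 in pig 11_1. In exercised brachial samples ATP5G3 was high at 12.71 in pig 10_5 and COX8H low at 7.31 in pig 10_1. In sedentary internal mammary samples COX6C was high at 13.13 and NDUFA9 at 9.92, both in pig 11_1, and NDUFA5 at 9.24 and NDUFV2 at 11.12, both in pig 12_3. In exercised internal mammary samples SDHA was low at 10.36 in pig 10_1.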

How the results depend on the processing

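The median change over the members was smaller than the spread between pigs. With each pig left out in turn, its sign changed in some comparisons. It ran from -0.032 to 0.022 in the brachial training comparison. Between arteries it ran from -0.0042 to 0.034 in exercised pigs and from -0.034 to 0.0058 on average. The median stayed below 0 in the internal mammary (-0.078 to -0.033) and average (-0.057 to -0.0057) training comparisons. It also did so between arteries in sedentary pigs (-0.060 to -0.010), and the interaction median stayed above 0 (0.026 to 0.096). With each artery fitted alone, counts of passing members went from 2 to 1 in the brachial training comparison (NDUFA12 lost) and from 1 to 0 in the internal mammary one. Without the random pig block they went from 11 to 7 between arteries in sedentary pigs. Averaging probe sets gave 1 and 0 in the training comparisons of each artery. Array weights gave 2 in the internal mammary artery. The smooth muscle covariate gave 17 between arteries in sedentary pigs. The macrophage covariate gave 0 and 0 in the training comparisons of each artery and 6 between arteries in exercised pigs. The 8 pigs collected first gave 0, 0 and 1 in the training comparisons (brachial, internal mammary, average) and 3, 3 and 8 between arteries (sedentary, exercised, average), and the 7 collected last gave 0, 0 and 0, and 3, 5 and 11. Fewer pigs enter these fits. Leaving out each pig in turn gave 0 to 2, 0 to 2 and 2 to 3 in the training comparisons and 7 to 13, 9 to 11 and 15 to 22 between arteries, with 7 without pig 12_3. The interaction stayed at 0 throughout. With probe sets averaged, 4 values turned direction and passed: NDUFV2 between arteries at 0.17 in sedentary and 0.27 in exercised pigs and 0.22 on average, and ATP5J at 0.12 on average. The cause of these changes was not tested. Signal over background could not be measured from the deposited values.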
